A study of Drosophila melanogaster with 3 samples.

Results

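The peaks described are the 214 peaks on chromosome 4 among the 30000 of a peak list that the authors called on pooled chromatin immunoprecipitation libraries of the zinc finger protein sqz in fly embryos. They were chosen by chromosome alone, with no use of their strength. The embryos of Drosophila melanogaster came from the transgenic strain sqz-GFP, which carries sqz with GFP at its C-terminus. Both sexes were pooled, whole organisms were used and the age was 0 to 16 h, so every tissue and stage of that span is mixed. The 3 libraries are labelled as biological replicates of 1 group, there is no other condition, and all peak calls used 1 shared control alignment. They were taken as ChIP libraries because the antibody, the assay title and the control named in the file headers say so, although a description label has them as input. Each library also has its own list of 30000 peaks, of which 203, 277 and 213 lay on chromosome 4 in replicates 1, 2 and 3.

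The gene squeeze (sqz) encodes a zinc finger transcription factor known for its part in neuron identity in the embryonic nerve cord. Chromosome 4, the dot chromosome, is the smallest fly chromosome. Its gene-bearing arm is packed with the heterochromatin protein HP1, is bound by the protein POF and is interspersed with remnants of transposable elements, yet many of its genes are active. It carries several developmental regulators, among them the Hedgehog effector ci, the Pax6 genes ey and toy, and the Wnt effectors pan and lgs.

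The strongest peaks are shown first because the first 5 were also the highest of the chromosome in every library. Each sequence is the plus strand of Release 6 (dm6), within 100 bp of the summit, the base of highest signal in a peak. UTR bases were left out, so that only the upstream part is given at the pan and zfh2 promoters. Words in the bases left out are not shown, among them an A run at each of these promoters. The peaks at CaMKI and Ephrin, next in strength, are not printed because 0 and 1 bp remained. Capitals mark matches on either strand to 8 short words. These were the A run AAAAAA, since vertebrate relatives of sqz bind A-rich sites, the GAGA factor core GAGAG, the CA repeat CACACA, the DNA replication-related element (DRE) core TATCGA, the Zelda core CAGGTA, the homeodomain core TAATTA, the GATA factor core GATAAG and the E-box CACCTG. Each word was counted by itself, whether or not it overlapped another. A match is a description and not a binding site.
Asator upstream peak, chr4:489422-489622: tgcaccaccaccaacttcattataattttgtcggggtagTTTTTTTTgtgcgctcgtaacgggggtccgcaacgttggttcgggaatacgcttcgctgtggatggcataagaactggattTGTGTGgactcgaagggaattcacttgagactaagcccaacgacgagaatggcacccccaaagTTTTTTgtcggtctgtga
pan promoter, upstream part, chr4:69261-69325: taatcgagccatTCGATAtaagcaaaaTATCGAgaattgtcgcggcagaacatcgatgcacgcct
zfh2 upstream peak, chr4:497808-498008: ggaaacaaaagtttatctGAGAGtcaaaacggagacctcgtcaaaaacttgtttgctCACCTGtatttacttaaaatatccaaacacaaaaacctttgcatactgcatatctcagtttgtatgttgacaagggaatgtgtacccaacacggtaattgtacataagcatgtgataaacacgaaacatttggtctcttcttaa
zfh2 promoter, upstream part, chr4:501719-501809: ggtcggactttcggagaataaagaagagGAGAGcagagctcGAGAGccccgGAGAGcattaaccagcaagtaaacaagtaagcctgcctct
Peak between dati and lgs, chr4:424732-424932: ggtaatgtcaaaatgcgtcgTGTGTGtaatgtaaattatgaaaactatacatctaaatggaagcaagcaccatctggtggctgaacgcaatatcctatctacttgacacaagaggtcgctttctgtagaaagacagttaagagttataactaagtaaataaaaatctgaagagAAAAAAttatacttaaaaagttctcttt
dati upstream peak, chr4:404416-404616: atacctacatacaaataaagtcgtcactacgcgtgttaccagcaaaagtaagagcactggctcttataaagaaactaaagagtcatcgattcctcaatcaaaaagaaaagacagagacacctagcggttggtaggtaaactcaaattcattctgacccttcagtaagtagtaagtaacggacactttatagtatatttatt

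The highest peak of the chromosome lay next to Asator, which encodes a tau-tubulin kinase relative found at the spindle. Its summit at 489522 was 528 bp upstream of the nearest annotated transcription start site (TSS), in the intergenic stretch between Asator and zfh2. Its deposited signal was 1971, which placed it at rank 16 of the pooled list. Signal here is the strength value deposited by the authors on a scale they do not define, and it serves only to order peaks. The peak ranked 51 in the list of replicate 1, 13 in replicate 2 and 11 in replicate 3, near the top of all 3. At 895 bp it was also the widest on the chromosome, where 206 of 214 peaks had the same width of 456 bp. The printed sequence at its summit holds runs of T on both sides of the summit and a TG repeat, with a GC content of 48.8% over 201 bp against a median of 34.3% for the chromosome 4 summits.

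A peak at the first base pairs of pan came next. The gene encodes the TCF protein that acts at the end of the Wnt pathway, and the summit at 69361 lay 35 bp inside the transcribed region. Signal was 1337 and the pooled rank 71, with ranks of 217, 59 and 52 in replicates 1, 2 and 3. Replicate 1 placed it lower than the other 2 libraries did. The upstream part printed above holds the DRE core in both orientations. The same called interval held another summit at 69562, 91 bp upstream of another pan TSS, with a signal of 316 and ranks of 3993, 6463 and 2376. A further thresholded peak sat in a pan intron at 85116, with a signal of 212.

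The gene zfh2, which encodes a large protein with zinc fingers and homeodomains, had a pair of strong peaks. One summit at 497908 lay 3902 bp upstream of its TSS, with a signal of 939 and ranks of 250, 197 and 250 in the 3 libraries. The other, at 501819, lay 9 bp inside the gene, with a signal of 877 and ranks of 536, 231 and 191. No library ranked either of them below 536, and the upstream peak held nearly the same rank in all 3. The promoter sequence holds 3 matches to the GAGA factor core. The stretch between Asator and zfh2 is 12.8 kb long and held 8 peaks in all, 2 of them thresholded.

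The fifth peak was far from any start site. Its summit at 424832 lay in the 41.4 kb between dati and lgs, beyond the 3' end of lgs and 19079 bp from its TSS. Signal was 653, and the ranks of 507, 615 and 599 were close to each other. This gap held 16 of the 214 peaks, the most of any stretch between genes on the chromosome, and 3 were thresholded. The other 2, at 404516 and 407004, lay 8911 and 11399 bp upstream of dati, which encodes a zinc finger transcription factor, with signals of 388 and 297. No summit within 1 kb of a dati TSS was thresholded, although 4 pooled summits lay there, the strongest with a signal of 121.

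**Figure D1:**
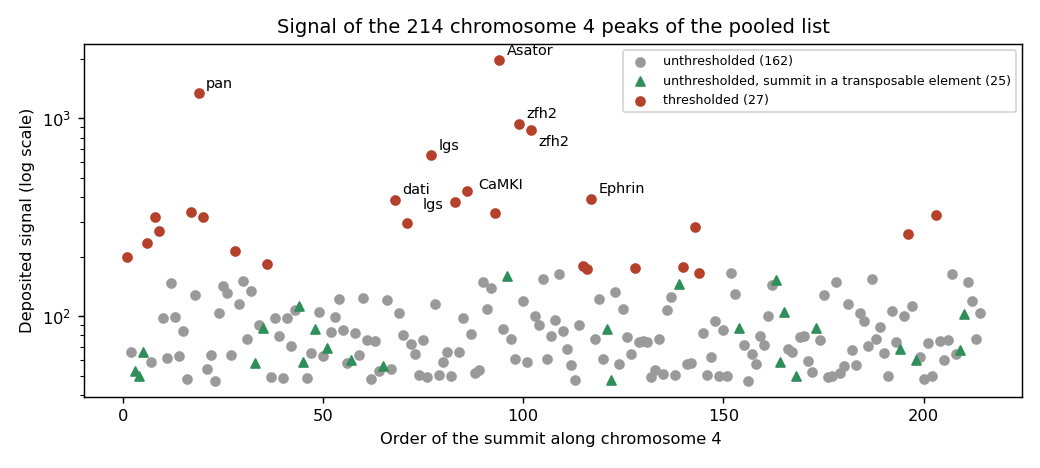
Deposited signal of the 214 chromosome 4 peaks on a log axis against their order along the chromosome from 1 to 214, with thresholded peaks in red, summits in transposable elements as green triangles and the 9 strongest labelled by nearest gene. The peaks at Asator (1971), pan (1337) and zfh2 (939 and 877) stand above the others, and no thresholded peak is a triangle.

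The remaining thresholded peaks named a further set of regulators and signalling genes. The thresholded list holds the peaks that the authors kept by the irreproducible discovery rate, a measure of how alike peaks rank between replicates, and its members are the strongest of the pooled list by signal. At lgs, which encodes the partner of beta-catenin, a summit at 443821 lay 90 bp inside the gene, with a signal of 377 and ranks of 4169, 1423 and 1791. At CaMKI, a calcium and calmodulin-dependent kinase gene, the summit at 446175 had a signal of 430 and ranks of 2453, 2044 and 730. At Ephrin, the ligand of the Eph receptor in axon guidance, the summit at 571854 had a signal of 392 and ranks of 4207, 1176 and 1486. These 3 promoter peaks were ordered differently by the libraries, with replicate 1 placing each of them lowest.

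At ci, 3 thresholded peaks had the gene's starts as their nearest. The one at 56449 lay inside the gene, 118 bp upstream of an internal TSS, with a signal of 234. Those at 59240 and 60335 lay upstream of the gene, 2199 and 3294 bp from its outer TSS, with signals of 319 and 270. Both upstream peaks lie inside the annotated antisense RNA gene asRNA:CR43957. The stretch between ci and the ribosomal protein gene RpS3A is 8.18 kb long and held 10 peaks. At RpS3A itself a summit lay 1 bp from the TSS, with a signal of 337 and ranks of 1171, 3952 and 3099, where replicate 1 placed it highest.

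TGF-beta family ligands have 3 genes on the chromosome, and each had a pooled summit within 1 kb of a TSS, as did 62.5% of all chromosome 4 genes. At Actbeta, the activin gene, the summit at 1084584 had a signal of 262 and ranks of 10049, 3933 and 2338. At myo, which encodes myoglianin, the summit at 695263 had a signal of 174, ranks of 14367 and 6393 in replicates 2 and 3, and no summit within 100 bp in replicate 1. At mav, the maverick gene, the best signal was 122, below the threshold. Both thresholded ligand peaks thus rested on libraries that ranked them far apart.

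Other thresholded peaks were found at Asator, in an intron 1363 bp from a TSS (signal 334), and in the 3' UTR region of Cals, the calsyntenin gene, which overlaps the Pax2 gene sv (326). Sox102F, a SoxD transcription factor gene, had summits at 807534 (282) and 807734 (166), PlexB, a semaphorin receptor gene, had one at 43651 (200), and anne one at 132124 (184). Pur-alpha, which encodes a nucleic acid-binding protein, had summits at 558058 (180) and 558285 (172), and the start of Tdg, the thymine DNA glycosylase gene, lies within 1 kb of both. The Pax6 gene ey had its thresholded peak in an intron at 712974 (176), 5545 bp from a TSS. The 27 thresholded peaks had 17 different nearest genes, and all 214 had 50. The last peak inside the threshold had a signal of 166 at rank 6531 and the first outside, at 834739 near another Sox102F TSS, had 165 at rank 6599, so these values are adjacent.

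**Figure D2:**
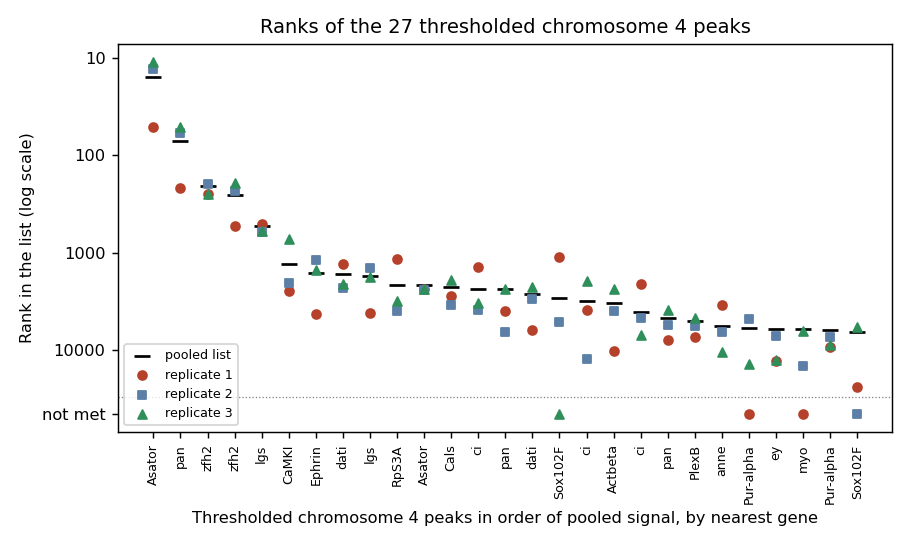
Rank of each of the 27 thresholded chromosome 4 peaks in the pooled list and in the list of each replicate, on an inverted log axis, with peaks ordered by pooled signal and named by nearest gene. Points on the bottom line mark libraries with no summit within 100 bp, which happened for Sox102F (replicate 3 at one peak, replicate 2 at the other), Pur-alpha and myo (both replicate 1), and the dotted line is rank 30000.

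Fewer of the chromosome 4 peaks passed the authors' threshold than elsewhere. The count was 27 of 214, or 12.6% (95% Wilson interval 8.82 to 17.7), while 21.9% of all pooled peaks are in the thresholded list. On the X the share was 20.4%, and on 2L, 2R, 3L and 3R it lay between 21.6% and 24.7%. The chromosome 4 peaks made up 0.713% of the pooled list and 0.410% of the thresholded list, and 5 were among the strongest 1000. Their median signal was 79.1 against 87.7 over the whole list. Intervals of this kind cover counting error over peaks only, and neighbouring peaks are not independent.

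The same order held in each library by itself. From each library's own list the strongest peaks were taken, as many as the thresholded list holds. On chromosome 4 this took 14.3%, 11.2% and 12.2% of the peaks in replicates 1, 2 and 3, against 21.98%, 22.03% and 22.00% on the other chromosomes. The mean difference was -9.44 ± 1.60 percentage points (SD, n = 3 libraries), lower in 3 of 3. With 50% as many peaks taken per library, which lowers both shares, it was -4.72 points. An exact two-sided sign-flip permutation test over libraries gave p = 0.25, the smallest that 3 libraries allow, so this design cannot reach 0.05. Over the 3 tests of this kind made here, each Benjamini-Hochberg adjusted value was also 0.25. The libraries share 1 control alignment, so they are not fully independent.

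Peaks were also sparser. The pooled list had 159 chromosome 4 summits per Mb and 225 per Mb on the other chromosomes, a ratio of 0.706. For thresholded peaks the densities were 20.0 and 49.4 per Mb, a ratio of 0.405. Outside annotated transposable elements the ratios were 0.784 and 0.509. Counted per protein-coding gene the order of the pooled peaks was the other way, at 2.67 per gene on chromosome 4 and 2.15 over all chromosomes, while thresholded peaks stood at 0.338 and 0.472 per gene. The pooled value lay inside the range of the other arms, from 1.62 on 2R to 3.09 on the X. The thresholded value lay below theirs, which ran from 0.400 on 2R to 0.630 on the X. Chromosome 4 has 59.3 genes per Mb against 104 over all, and its genes are longer, with a median of 10.1 kb against 2.16 kb.

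Chromosome 4 also differed from the other arms in base composition and repeats. Its GC content was 35.2%, while the other arms lay between 41.6% and 42.6%. Transposable elements covered 24.8% of its bases and 5.74% of the others, and soft-masked repeats covered 29.1%. Their part in the peak counts was not tested. A stretch of the same length at the centromere end of the other arms held 8 pooled peaks on 2L, 3 on 2R, 2 on 3L, 0 on 3R and 53 on the X. Chromosome 4 thus had more peaks than any of these 5 stretches. Among the 95 windows of its length that tile the other arms, 24 had fewer than its 214 peaks, and the median was 332.

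Along the chromosome the peaks were spread unevenly. The first summit lay at 43651 and the last at 1232664, which leaves 115467 bp at the far end with none. In 100-kb windows from the left the peaks numbered 32, 16, 1, 18, 34, 17, 14, 9, 17, 22, 19, 12 and 3, and the last, shorter window had none. The first window, around ci and pan, and the fifth, from the gap after dati to the upstream side of zfh2, each held 8 thresholded peaks, together 16 of the 27. The third window held 1 peak although 8 genes start in it. In the last, shorter window transposable elements covered 95.4% of the bases. The widest gap between summits, 86500 bp, ran from ey to Sox102F. Elsewhere summits lay close, with a median spacing of 1320 bp and 48 neighbouring pairs under 500 bp apart, and merging summits within 200 bp left 207.

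Library support was compared next, as the share of pooled summits with a summit within 100 bp in a library's list. In replicate 1, 47.7% of chromosome 4 summits were met, where 56.6% of all pooled summits were. In replicate 2 the shares were 66.8% and 70.3%, and in replicate 3 they were 57.5% and 67.3%. Chromosome 4 was thus lower than the rest in every library. Against the other chromosomes the mean difference was -7.45 ± 3.43 percentage points (SD, n = 3 libraries; exact two-sided sign-flip permutation p = 0.25, the smallest possible). All 3 libraries met 47 of the 214 (22.0%), where 32.6% of all pooled summits were met in all 3. No library met 14 of them (6.54%, 3.94 to 10.7), against 5.26% on the other chromosomes, a value inside the interval.

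The difference was smaller with ranks taken into account. When the other chromosomes were weighted to the rank classes of the chromosome 4 peaks, the mean difference was -3.90 percentage points, with values of -4.78, -0.479 and -6.44 in replicates 1, 2 and 3. Among thresholded peaks alone the sign was reversed, at 1.80 points higher on chromosome 4. There 25, 26 and 26 of the 27 peaks were met in replicates 1, 2 and 3. All 3 libraries met 23 (85.2%, 67.5 to 94.1), against 81.8% on the other chromosomes, a value inside the interval. The thresholded peaks are the strongest of a list called on these same libraries pooled, and which replicate comparison set the threshold is not stated. High shares among them therefore follow in part from how they were chosen. Of the 187 peaks below the threshold 24 were met in all 3, and their shares are set beside those elsewhere by rank class. In the rank class just below the threshold, 41.2% (28.8 to 54.8) were met in all 3 on chromosome 4 and 48.5% elsewhere, a value inside the interval. Peaks ranked 13157 to 19734 were met in all 3 in 3 of 54 cases (5.56%, interval 1.91 to 15.1) on chromosome 4 and in 16.5% elsewhere. Peaks ranked 19735 or lower were so met in 0 of 82, which by a limit of 3 counts allows a share of up to 3.66% (Wilson upper bound 4.48%), and in 1.42% elsewhere. In replicate 2 alone this lowest class was met in 41 of 82 cases on chromosome 4 (39.4 to 60.6%) and in 45.3% elsewhere.

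**Figure D3:**
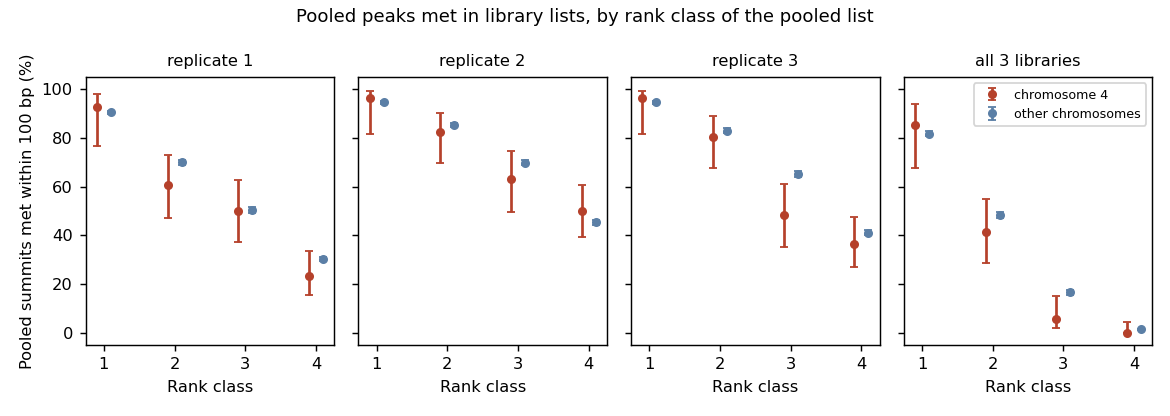
Share of pooled summits (%) with a summit within 100 bp in each replicate's list and in all 3, by rank class of the pooled list (class 1, the thresholded peaks; classes 2 and 3, the next ranks in sets of the same size; class 4, the rest), for chromosome 4 in red and the other chromosomes in blue, with 95% Wilson intervals. Both series fall from class 1 to class 4, and in class 3 the share met in all 3 is 5.56% on chromosome 4 and 16.5% elsewhere.

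Where a summit was met, it lay within 100 bp by definition, so only distances under that limit are described. The median distance from the pooled summit was 14, 8 and 17 bp in replicates 1, 2 and 3, and for thresholded peaks 7, 5 and 17.5 bp. Over the 47 peaks met in all 3, ranks in pairs of libraries had a Spearman rho of 0.67 between replicates 1 and 2, 0.72 between 1 and 3, and 0.75 between 2 and 3. These are descriptions over peaks that share a control and were called in pooled data that include each library. Of the libraries' own chromosome 4 peaks, 101, 134 and 90 had no pooled summit within 100 bp. The shares with one were 50.2%, 51.6% and 57.7% in replicates 1, 2 and 3. On the other chromosomes they were 56.6%, 70.5% and 67.3%. Of the chromosome 4 peaks without a pooled summit, 19, 24 and 11 were met in another library, a count not made for the other chromosomes.

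The peaks on chromosome 4 were nearer to gene starts than peaks elsewhere. Within 500 bp of a protein-coding TSS lay 67 of 214 summits, or 31.3% (25.5 to 37.8), against 20.6% on the other chromosomes. The bases this close to a TSS make up 8.55% of chromosome 4 and 11.5% of the others, so the summit share was 3.66 times the base share here and 1.80 times there. Summits over 5 kb from any TSS made up 22.0% and 38.4%. Introns held 76 (35.5% against 49.5%) and intergenic sequence 63 (29.4% against 26.0%). Coding exons held 4, and 5' UTRs and 3' UTRs held 2 each. Of the 67, 36 were upstream of the TSS, and the median position of all 67 was -14 bp.

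Thresholded peaks were at starts more often. Of the 27, 15 were TSS-proximal (55.6%, 37.3 to 72.4), against 37.8% of thresholded peaks elsewhere, a value inside the interval. Introns held 3 (11.1%, 3.85 to 28.1), against 42.0% elsewhere, a value outside it. In the libraries' own lists the TSS-proximal share was 30.05%, 29.2% and 27.7% on chromosome 4 in replicates 1, 2 and 3, and 25.02%, 20.8% and 21.5% on the other chromosomes. The mean difference was 6.54 ± 1.72 percentage points (SD, n = 3 libraries), higher in 3 of 3, with an exact two-sided sign-flip permutation p of 0.25, the smallest possible.

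**Figure D4:**
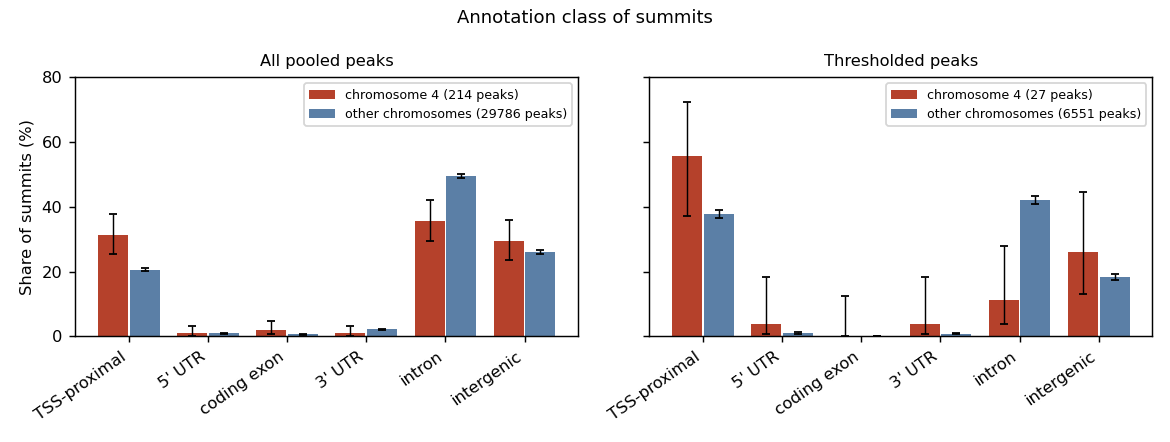
Share of summits (%) in each annotation class for chromosome 4 in red and the other chromosomes in blue, for all pooled peaks on the left and thresholded peaks on the right, with 95% Wilson intervals. TSS-proximal summits make up 31.3% against 20.6% of pooled peaks, and introns 11.1% against 42.0% of thresholded peaks.

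Counted over genes, chromosome 4 was above the rest in the pooled list and near it in the thresholded one. Of its 80 protein-coding genes 50 (62.5%, 51.5 to 72.3) had a pooled summit within 1 kb of a TSS, where 37.3% of all genes did. A thresholded summit was found at 16 (20.0%, 12.7 to 30.1), near the 20.5% of all genes. With only the pooled peaks met in all 3 libraries, 20 genes (25.0%) had a summit on chromosome 4 and 22.6% elsewhere, a smaller difference than with the whole pooled list. Genes on chromosome 4 have 1.77 TSSs on average and 1.40 elsewhere, which gives them more places to be met, and the part of this in the count was not tested. In the libraries' own lists 50, 61 and 49 of the 80 genes had a summit this close in replicates 1, 2 and 3, and 42 had one in all 3. On the other chromosomes 49.3%, 37.6% and 38.9% of genes had one. The share of genes with one in all 3 libraries was not counted there, so the 42 have no value beside them.

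Gene groups were described by 4 lists chosen by hand with earlier results known, so their counts depend on which genes were listed. Transcription factor and cofactor genes had pooled summits near a start in 10 of 13 cases and thresholded ones in 5, namely ci, zfh2, Sox102F, pan and lgs, beside 62.5% and 20.0% of all chromosome 4 genes. The list is not complete, since sv, which it leaves out, had a pooled summit near a start with a signal of 62.2, and the factor genes fd102C and NfI had none. In the other listed factor genes with a summit the best signals near a start were lower. They were 150 at toy, 149 at Mitf, which encodes a basic helix-loop-helix factor, 121 at dati, 79.2 at fuss, a relative of Ski and Sno, and 75.2 at ey. The ey value is that of a summit nearer to the start of myo, 727 bp from it. Where an ey start was the nearest, the best signal within 1 kb was 74.2. No pooled summit lay within 1 kb of a start of onecut, of the Polycomb group gene pho or of Hcf, the host cell factor gene. Guidance, synapse and adhesion genes also had 10 of 13, with thresholded summits at Ephrin, PlexB and CaMKI. The receptor gene Eph had none although its ligand gene did, and unc-13 and dpr7 had none either. The plexin gene PlexA had 4 summits near its start, the strongest with a signal of 104.

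Housekeeping genes had summits within 1 kb of a start in 4 of 10 cases, at RpS3A and Tdg above the threshold and at ATPsynbeta (155) and Rad23 (83.4) below it. Of these, the Tdg summits lay nearer to starts of Pur-alpha, and the ATPsynbeta summit lay nearer to a start of CG11076. The Rad23 summit was met in no library. Outside the list, the gene of the respiratory chain subunit ND-49 lies head to head with Ephrin and shares its thresholded summit. No summit was found at eIF4G1, gw, PMCA, PIP4K, Crk or Dyrk3. The other 41 genes of the chromosome had summits at 23 and thresholded ones at 4. The lists differ in gene length, with a median of 18.2 kb for the factor genes and 5.03 kb for the housekeeping genes, and the part of length was not tested. Over whole genes, the most summits lay inside pan (15), zfh2 (13), Sox102F (10), ey (10) and dati (9). These are raw counts in genes of 20.0 to 44.9 kb, where the chromosome 4 median is 10.1 kb. Of other long genes, Cadps (40.9 kb) held 3, and unc-13 (44.5 kb) and bt (52.1 kb) held 0.

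Stretches between genes held 82 of the peaks, in 23 of 72 such gaps. The 3 richest, from dati to lgs, from ci to RpS3A and from Asator to zfh2, held 34 of the 82 in 62.3 of 330 kb. They also held 7 of the 8 thresholded peaks that lay between genes. The next richest, from fuss to toy, held 7 peaks, none of them thresholded.

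Transposable elements held 25 of the 214 summits, or 11.7% (8.04 to 16.7), and 0.302% of summits on the other chromosomes. In the libraries' own lists the share on chromosome 4 was 14.8%, 13.7% and 12.2% in replicates 1, 2 and 3, and at most 0.413% elsewhere. Measured against the bases they cover, elements held 0.472 times their share of summits on chromosome 4 and 0.0526 times elsewhere. Of the 25, 14 lay in INE-1, a short abundant element, and 8 in 1360, a DNA transposon known to promote silencing of reporters. HB, F and gypsy7 held 1 each. INE-1 covers 7.22% of chromosome 4 and held 6.54% of the summits, a ratio of 0.906, while on the other chromosomes the ratio was 0.404. For 1360 the ratios were 0.987 and 0.0967.

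Summits in elements were weak. None of the 27 thresholded peaks had one, which by a limit of 3 counts allows a share of up to 11.1% (Wilson upper bound 12.5%), and the best rank was 6850, an INE-1 copy 2466 bp upstream of Asator with a signal of 160. The next were a 1360 copy upstream of 4E-T (152) and an INE-1 copy in an intron of ey (145), and all 3 were met in every library. In all, 5 of the 25 were met in all 3 libraries. In single libraries 56.0%, 68.0% and 44.0% of them were met, where 38.9%, 61.7% and 53.1% of the other 162 unthresholded peaks were. Short reads place less surely in repeats, and how the authors treated reads with several matches is not stated in the sources used here.

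Short words were counted within 100 bp of summits on both strands, and in windows 1 kb to each side. The A run was held by 58.4% of chromosome 4 windows (51.7 to 64.8) and by 59.8% of all pooled windows. The flanks 1 kb away differed, at 54.7% on chromosome 4 and 36.5% over the list. The run was therefore about as common beside chromosome 4 summits as at them, while over the whole list it was more common at summits. Among the 27 thresholded windows 77.8% held it (59.2 to 89.4), against 63.0% of their flanks, and the whole thresholded list gave 71.7% and 35.8%. Summit windows on chromosome 4 had a median GC content of 34.3%, against 39.8% over the list.

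The remaining words are given in the same order of values, chromosome 4 first. The GAGA factor core was held by 21.5% of chromosome 4 windows and 26.7% of all pooled windows, and by 14.8% and 31.2% of thresholded ones, or 4 of 27 on chromosome 4 (5.92 to 32.5). The CA repeat was held by 15.9% (11.6 to 21.4) against 22.5%, with 13.6% and 18.5% in the flanks. In thresholded windows it was held by 33.3% (9 of 27, 18.6 to 52.2) against 25.8%, a value inside the interval. The DRE core was held by 12.1% (8.43 to 17.2) against 7.50%, with 13.8% in the chromosome 4 flanks. The homeodomain core stood at 12.6% against 12.5%, the GATA factor core at 10.3% against 9.59%, the Zelda core at 3.74% against 3.94%, and the E-box at 4.21% against 5.19%. Among pooled windows the list value lay outside the chromosome 4 interval for the CA repeat and the DRE core, and inside it for the other 6 words. This depended on the window, except for the DRE core. With 50 bp to each side the CA repeat stood at 10.3% (6.89 to 15.1) against 12.3%, a value inside the interval. With 150 bp the GAGA factor core stood at 28.0% (22.4 to 34.4) against 36.9%, a value outside it. The dati upstream sequence printed above holds none of the 8 words.

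**Figure D5:**
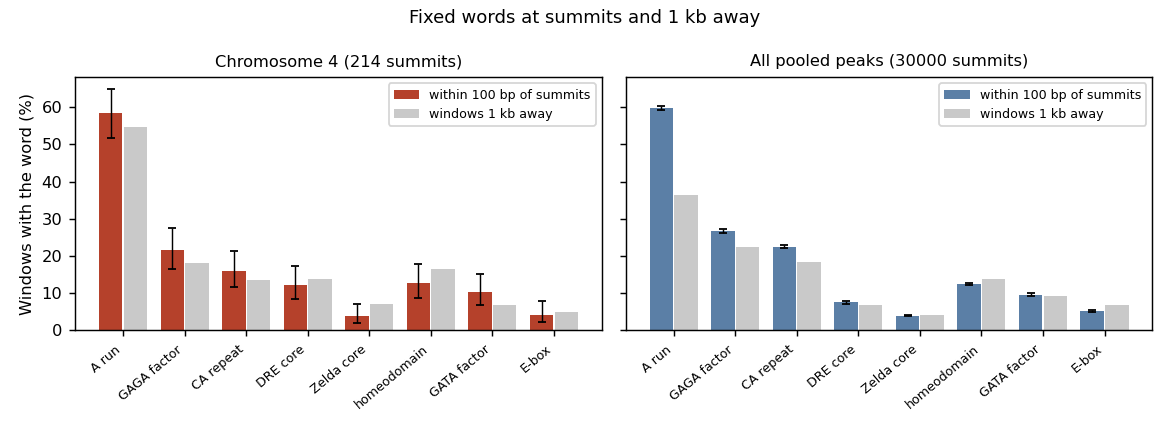
Share of windows (%) holding each of 8 fixed words within 100 bp of summits (coloured, with 95% Wilson intervals) and 1 kb away (grey), for chromosome 4 on the left and all pooled peaks on the right. The run of A stands at 58.4% at summits and 54.7% in flanks on chromosome 4, and at 59.8% and 36.5% over all pooled peaks.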

How the data were processed

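Chromatin was sonicated to 200 to 800 bp, per the labels. The file headers give peak calls by the authors on dm6, for single libraries and for the pool, with 1 control alignment throughout, and a thresholded list by irreproducible discovery rate. Neither the aligner nor the caller, their versions or the threshold is stated in the sources used here. Each list was ordered by the deposited signal, whose scale is undefined. The deposited -log10 q value reached a ceiling of 3.91, where 19 of the 214 peaks stood, and was not used for ranking. The deposited offset gave the summit. The files hold no read counts, so depth is unknown.

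A pooled summit was met in a library when a library summit lay within 100 bp, and the strongest such summit gave the rank. Genes, TSSs and transposable elements were those of Ensembl 115 (BDGP 6.54), and sequence was RefSeq's Release 6 assembly. Positions are given from 1. Classes were TSS-proximal (within 500 bp of a protein-coding TSS), then exons, introns and intergenic. Differences between chromosome 4 and the rest were tested over 3 libraries by exact sign-flip permutation; all else is description with 95% Wilson intervals, and a count of 0 also has the limit that 3 counts would give. Code was checked on simulated data. Python 3.11.15, numpy 2.4.6, pandas 2.3.3, scipy 1.17.1 and matplotlib 3.10.9 were used.

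Genes named are those nearest each thresholded or top-30 chromosome 4 peak and all members of 4 lists. Peaks and lists were chosen with earlier results of these data known. Nothing says that the replicates came from separate cultures beyond the label of biological replicate. Alternatives changed the matching distance, TSS window, rank limit, word window and libraries used.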

Additional observations from a re-analysis of the deposited data

How the results depend on the processing

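Of 47 alternative settings, 28 kept the direction of a tested difference or left an untested value within its interval, 18 moved a value out of it and 1 reversed a difference. Keeping direction did not mean keeping size, since the difference in the share among the strongest library peaks was -4.72 points with 50% as many peaks, against -9.44. The difference in the share of summits met in library lists was 1.80 points above 0 among thresholded peaks alone. With the rank limit of the thresholded list lowered by 50%, 7.94% of chromosome 4 peaks and 10.96% of the whole pooled list were inside. The TSS-proximal share was 22.4% with a window of 250 bp and 43.9% with 1000 bp. Peaks met in all 3 libraries left 25.0% of genes with a summit within 1 kb, in place of 62.5%. Density was 186 per Mb outside annotated transposable elements, a setting added after the data were seen, as were the weighting by rank class and the thresholded share outside elements. The remaining 13 moved values were word shares in windows of 50 or 150 bp to each side. Leaving out each library left 2 values, for which the smallest sign-flip p is 0.5. No paired analysis was possible because there is 1 group of samples. Chromosome 4 and the rest were compared within each library. Depth is unknown, and 3 libraries limit every test.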
